A study of Mus musculus with 41 samples.

Results

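Spindle cell tumors were compared with epithelial tumors of mice that ate no high fat diet (HFD) during puberty. The tumors were chosen by their sample labels alone, as all those of the LFD and LFD-HFD regimens. They numbered 20 of the 41 tumors of the series, with 6 labelled spindle-like and 14 labelled variable, and the latter are called epithelial here. All arose from Trp53-null BALB/c mammary duct fragments, with each donor's fragments shared out equally among the diets, and transplanted into the cleared inguinal fat pads of 3-week-old wild-type BALB/c females. LFD mice ate a low fat diet with 10% of calories from fat from 3 weeks of age for life, and LFD-HFD mice changed at 10 weeks to a diet with 60% of calories from fat. There were 3 spindle cell and 8 epithelial tumors from LFD mice, and 3 spindle cell and 6 epithelial tumors from LFD-HFD mice. Tumors with a latency under 52 weeks are called early. The spindle cell tumors M84R and M86R and 7 epithelial tumors were early, and the other tumors were late. The loss of Trp53 was carried by every transplant, so no tumor here had an intact gene in its donor cells, whereas the host fat pad, vessels and blood cells were wild type. The epithelial tumors 11L and 11R carry the same label number, and it is not given whether they came from 1 mouse. Tumors after pubertal HFD, used below for comparison, came from HFD and HFD-LFD mice. HFD mice ate the diet with 60% of calories from fat from 3 weeks of age for life. HFD-LFD mice changed from it at 10 weeks to the diet with 10%.

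Epithelial cells hold to each other through E-cadherin, tight junctions and desmosomes, and carry keratin filaments. In an epithelial to mesenchymal transition, transcription factors of the Snai, Twist and Zeb families repress these genes, and cells take up vimentin filaments and lay down collagen matrix. Spindle cell carcinomas of the breast are poorly differentiated tumors with elongated cells, and claudin-low breast cancer is known for low claudins, low E-cadherin and mesenchymal genes.

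RNA of each tumor was hybridised on a 2-color array beside Universal Mouse Reference, a commercial mixture of mouse RNAs used as a common standard. Each value is the log2 ratio of tumor over reference from the scanner software's processed signals, so that a difference of 1 between groups is a doubling. The dyes are stated in opposite ways, as the study's methods put the reference in Cy5 whereas the sample labels put the tumor there. The labels were followed, so the signs here oppose the methods. Measurements of both channels and of Y-linked genes bear on the dyes. Over the 20 arrays the median SD of a probe was 0.67 in the Cy5 channel and 0.27 in the Cy3 channel. The 5 probes of 4 Y-linked genes, which female tumors lack, had a median log2 ratio of Cy5 over Cy3 below 0 on every array, from -2.36 to -0.10. All 6 spindle cell arrays were scanned in a session of their own, on another scanner and with an earlier version of the scanner software than the 14 epithelial arrays, so in every difference given here the histology cannot be told apart from the session. By the scanner software's own call, tumor signal stood well above background for 59.1% to 72.7% of probes on spindle cell arrays and for 62.8% to 89.9% on epithelial arrays. The spindle cell array M32L had the smallest spread of log2 ratios of the 6 (0.75 against 1.15 to 1.34), and M76R correlated least with the mean of the others (r = 0.763 over genes, against 0.826 to 0.891). Results are also given without M32L, M76R and M86R. The epithelial arrays 11L (0.74) and 71L (0.89) also had small spreads and were kept there. The epithelial array 13L was kept too, and it correlated least with the mean of its group (r = 0.815, against 0.867 to 0.954). Its values are the low ends of the epithelial ranges given below for Bgn, Krt14, Esr1 and Trp53. The spread (1.31) and correlation (0.863) of M86R were within those of the other arrays, and its B cell markers were high, as given with the cell type markers.

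Limma called 869 of 21157 genes higher in spindle cell tumors, or 4.11%, and 1411 lower, or 6.67%, at an adjusted p under 0.05. Without M32L, M76R and M86R it called 682 genes higher (3.22%) and 1022 lower (4.83%), and 998 of the 2280 calls were made with the same sign in both fits. The median difference over all genes was -0.10, and it was 0.01 after normexp background correction and loess, which gave 1290 genes higher and 900 lower. Centring each array on its median gave 1136 higher and 875 lower. Without M33R the counts were 518 and 717, without M84R 548 and 733, and without M76R the genes called lower numbered 893. The reference RNA was common to all arrays, and yet for 17.9% of the called genes its channel showed the larger of the 2 group differences. Groups that did not overlap at all, with every spindle cell tumor above every epithelial tumor, were found in 69 genes (0.326%), and the reverse in 0.515% of genes. Nothing says that the tumors of a group came from separate litters or batches, so p-values measure the spread between these tumors only.

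Of the lists, that of matrix genes had the most members called. Beside the count of any list, the shares over all genes were 4.11% called higher and 6.67% lower. Without M32L, M76R and M86R these shares were 3.22% and 4.83%. Of 22 genes for collagens and other matrix proteins, 13 rose in spindle cell tumors, 0 fell and 9 did not pass the test, and all 22 had a difference above 0, with a median of 1.39. Of 20 genes for matrix proteases, their inhibitors and collagen crosslinking enzymes, 7 rose, 0 fell and 13 did not pass, with a median of 1.11. These are bulk tumors, in which more cells of a type and more RNA per cell cannot be told apart.

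Bgn, which encodes the matrix proteoglycan biglycan (probe on mm9 chromosome X, 70738554 to 70738613), had the largest difference of the matrix genes. Its log2 ratios in spindle cell tumors were -0.64 in M18L, -0.54 in M32L, 0.98 in M33R, 1.09 in M76R, 0.62 in M84R and 1.46 in M86R, and those of epithelial tumors ran from -3.54 to -1.28 with a median of -2.09. Every spindle cell tumor was above every epithelial tumor. The difference was 2.59 (standard error 0.32, limma, adjusted p = 6.28e-05), a 6.01-fold higher ratio, and 2.41 without M32L, M76R and M86R (adjusted p = 0.00126).

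The collagens of types I and III were above the epithelial range in 5 of the 6 spindle cell tumors. Col1a1, a chain of type I collagen, lay at -2.94 in M18L, -0.76 in M32L, -0.01 in M33R, -0.81 in M76R, -0.57 in M84R and -1.13 in M86R, against -5.24 to -1.64 (median -2.98) in epithelial tumors. M18L lay within the epithelial range and the others lay above it. Col1a1 rose by 2.07 (standard error 0.48, adjusted p = 0.0108), Col1a2, the other chain of type I collagen, by 2.23 (0.43, adjusted p = 0.00312) and Col3a1, the chain of type III collagen, by 2.33 (0.48, adjusted p = 0.0052). Without M32L, M76R and M86R, which leaves M18L as 1 of 3 spindle cell tumors, the differences were 1.93, 1.81 and 1.67 and none of these collagens was called (adjusted p = 0.0844, 0.0596 and 0.0911). In that fit 5 of the 22 matrix genes were called higher, namely Bgn, Col5a1, Col5a2, Col6a2 and Col6a3, with a list median of 1.29. For Col5a1 and Col5a2, chains of type V collagen, both M18L and M86R lay within the epithelial range. Fn1, which encodes fibronectin, had a difference of 0.23 (standard error 0.53, adjusted p = 0.818).

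Loxl1 and Lox, enzymes that crosslink collagen and elastin, rose by 1.82 (standard error 0.29, adjusted p = 0.000792) and 1.59 (0.34, adjusted p = 0.00635). Loxl1 ran from -1.42 to 0.70 (median 0.07) in spindle cell tumors, against -2.73 to -0.68 (median -1.83). M18L had the lowest Loxl1 of the spindle cell tumors and lay within the epithelial range. Mmp2, a gelatinase, rose by 1.78 (standard error 0.37, adjusted p = 0.00531). Mmp3, stromelysin 1, rose by 1.50 (standard error 0.43, adjusted p = 0.0315) from a level already high in epithelial tumors, where its log2 ratio ran from 5.13 to 7.49, and in spindle cell tumors from 5.80 to 9.18. Without the 3 arrays the calls of Mmp2 and Mmp3 were lost (adjusted p = 0.0855 and 0.122) and those of Lox and Loxl1 were made. Mmp3 was also not called after normexp and loess (adjusted p = 0.293).

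**Figure D1:**
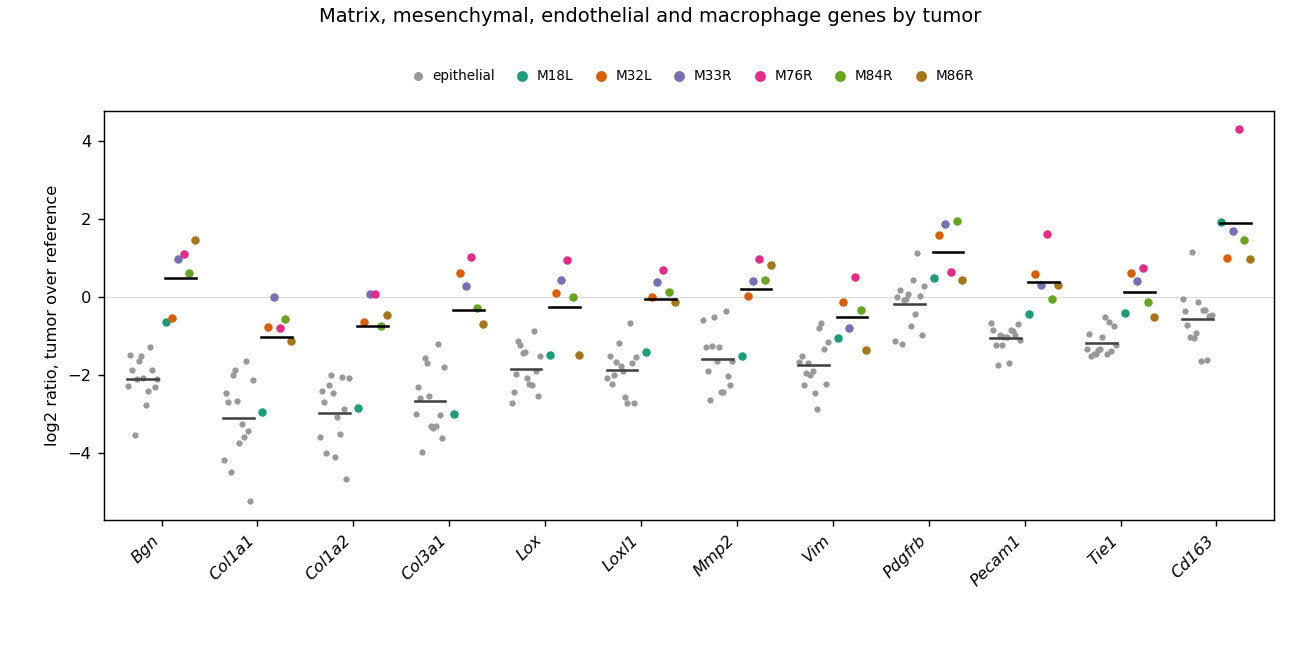
Log2 ratio of tumor over reference (y axis) of 12 genes in each tumor, with epithelial tumors in gray, spindle cell tumors in color and horizontal lines at the group means. Bgn and Pecam1 have every spindle cell tumor above every epithelial tumor, and M18L lies among the epithelial tumors for Col1a1, Col1a2, Col3a1, Lox, Loxl1 and Mmp2, joined by M86R for Lox.

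Of 22 mesenchymal genes of the cytoskeleton and cell surface, 5 rose, 0 fell and 17 did not pass, with a median difference of 0.58, and 0.37 without M32L, M76R and M86R, where 3 were called. Vim, which encodes the filament protein vimentin, had log2 ratios of -1.04 in M18L, -0.13 in M32L, -0.80 in M33R, 0.51 in M76R, -0.33 in M84R and -1.36 in M86R, and of -2.86 to -0.68 in epithelial tumors. M32L, M76R and M84R were above all epithelial tumors and the other 3 overlapped with them. The difference was 1.22 (standard error 0.30, adjusted p = 0.0139), and 1.03 without M32L, M76R and M86R (adjusted p = 0.086). Itga5, a fibronectin receptor subunit, rose by 1.67 (standard error 0.35, adjusted p = 0.00606), and Pdgfrb, a growth factor receptor of fibroblasts and pericytes, by 1.34 (0.31, adjusted p = 0.0108). Eng, endoglin, a coreceptor for TGF-beta that is also abundant in endothelial cells, rose by 1.33 (standard error 0.22, adjusted p = 0.000941). These 3 were also called without the 3 arrays. Cdh2, which encodes N-cadherin, had a difference of 0.40 (standard error 0.49, adjusted p = 0.639).

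Of 13 transcription factors of the epithelial to mesenchymal transition, 1 rose and 1 fell, where 4.11% of all genes were called higher and 6.67% lower. Twist2 rose by 1.82 (standard error 0.47, adjusted p = 0.0179), with log2 ratios of -3.47 in M18L and -3.08 in M86R, within the epithelial range of -4.64 to -1.59, and of -1.83, -0.53, -1.20 and 0.12 in M32L, M33R, M76R and M84R, of which M32L also overlapped. Foxc1, a forkhead factor, fell by 1.53 (standard error 0.32, adjusted p = 0.006), and this call was lost without the 3 arrays (adjusted p = 0.0628). Zeb1 differed by 0.79 (standard error 0.26, adjusted p = 0.0526) and was called after normexp and loess (1.03, adjusted p = 0.0174), whereas without the 3 arrays its difference was 0.25 (adjusted p = 0.593). Zeb2 had a difference of 0.94 (standard error 0.45, adjusted p = 0.18), Snai1 of 0.75 (0.47, adjusted p = 0.318), Snai2 of 0.70 (0.72, adjusted p = 0.561) and Twist1 of 0.03 (0.41, adjusted p = 0.973). Without the 3 arrays Zeb2 had a difference of 0.38, Snai1 of 1.29 and Snai2 of 1.35, none of them called. The list median was 0.67, and 0.38 without the 3 arrays. M18L and M86R had mean levels of these factors of -0.98 and -1.37, within the epithelial range of -1.45 to -0.46, and the other 4 spindle cell tumors lay above it, from -0.21 to -0.05.

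Of 19 genes of the TGF-beta pathway, which drives the same transition, 1 rose and 1 fell, and the median difference was -0.05. Over all genes 4.11% were called higher and 6.67% lower. Tgfb1, a ligand, rose by 1.01 (standard error 0.28, adjusted p = 0.0273). Its difference in the reference channel was larger than in the tumor channel (-0.78 against 0.24). Smad4, the shared signal carrier of the pathway, fell by 0.58 (standard error 0.13, adjusted p = 0.01), from 0.32 to 1.06 in epithelial tumors to -0.12 to 0.35 in spindle cell tumors.

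Most genes for cell junctions did not pass the test. Of 21 genes for epithelial adhesion and tight junctions, 0 rose, 3 fell and 18 did not pass, with a median difference of -0.70 and 5 differences above 0. Cdh1, which encodes E-cadherin (probe on mm9 chromosome 8, 109193812 to 109193871), had log2 ratios of 1.39 in M18L, 1.11 in M32L, 1.09 in M33R, -1.16 in M76R, 1.25 in M84R and 1.92 in M86R, against -0.04 to 1.91 (median 1.45) in epithelial tumors. M76R alone lay below the epithelial range. The difference was -0.43 (standard error 0.33, adjusted p = 0.43), and -0.12 without the 3 arrays (adjusted p = 0.847). Epcam, an epithelial adhesion molecule, differed by 0.02 (standard error 0.53, adjusted p = 0.988). The claudins, which seal tight junctions, differed by -0.63 for Cldn3 (standard error 0.35, adjusted p = 0.254), by 0.08 for Cldn4 (0.53, adjusted p = 0.941) and by -0.73 for Cldn7 (0.38, adjusted p = 0.228). Without the 3 arrays Cldn3 differed by -1.12 (adjusted p = 0.0822) and Cldn7 by -1.14 (adjusted p = 0.136). M33R and M76R lay below the epithelial range for Cldn3, and M33R and M84R for Cldn7. The lowest epithelial value of Epcam was that of 13L (-1.62), and the other 13 epithelial tumors ran from 1.87 to 3.02. M32L (1.73), M84R (1.30) and M76R (0.39) were below those 13, M18L (2.64) was among them, and M33R (3.28) and M86R (3.55) were above.

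The 3 genes that fell encode parts of the tight junction. Marveld3, a membrane protein of tight junctions, fell by 1.61 (standard error 0.41, adjusted p = 0.0169), from 2.95 to 4.80 in epithelial tumors to 0.96 to 4.64 in spindle cell tumors, where M18L and M86R (4.64 and 3.55) overlapped with the epithelial tumors. It was not called without the 3 arrays (adjusted p = 0.0636). Cgn, which encodes cingulin of the junction's inner face, fell by 1.26 (standard error 0.28, adjusted p = 0.00789), with 1.03 in both M18L and M86R and -1.01 to -0.04 in the other 4, against 0.75 to 2.49. Patj, a scaffold of the Crumbs polarity complex, fell by 1.15 (standard error 0.25, adjusted p = 0.00664), from 1.14 to 2.31 in epithelial tumors to -0.75 in M76R and 0.81 to 1.33 in the others. Cgn and Patj were also called without the 3 arrays (adjusted p = 0.037 and 0.0284).

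Repressors of the Snai and Zeb families bind the sequence CACCTG, which reads CAGGTG on the other strand. Promoters of the junction genes called lower are shown for these letters, from 250 bases before to 50 bases after a gene's start, as RefSeq gives it in GRCm38.p6. Both strands were searched, and matches are in capitals. Of 32851 promoters of this length, 20.2% held the motif. Among Cdh1, Marveld3, Cgn and Patj, Cgn and Patj were found in this table. Patj had 3 starts, and the first is printed since the others held no match.
Patj, chr4:98395576-98395875, plus strand: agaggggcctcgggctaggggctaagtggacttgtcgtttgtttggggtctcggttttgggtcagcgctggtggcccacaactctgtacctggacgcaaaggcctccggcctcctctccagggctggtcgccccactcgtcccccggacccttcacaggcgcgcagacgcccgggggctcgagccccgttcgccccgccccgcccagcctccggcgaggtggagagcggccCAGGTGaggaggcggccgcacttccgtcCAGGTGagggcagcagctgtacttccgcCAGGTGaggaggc
Cgn, chr3:94786433-94786732, minus strand: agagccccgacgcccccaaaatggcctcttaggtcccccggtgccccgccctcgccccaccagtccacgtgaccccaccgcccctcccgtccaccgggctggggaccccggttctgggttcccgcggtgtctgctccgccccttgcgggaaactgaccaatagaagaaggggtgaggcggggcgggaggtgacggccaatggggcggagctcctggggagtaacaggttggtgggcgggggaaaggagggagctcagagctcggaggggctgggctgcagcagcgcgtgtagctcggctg
The Patj window held 3 matches around the start and the Cgn window held 0. A match is a run of letters and not a measured binding site.

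Keratins differed more among the tumors of each group than between the groups. The mean level of the list ran from -0.97 to 1.88 in spindle cell tumors and from -1.09 to 1.63 in epithelial tumors. Of 12 epithelial keratins, 2 rose, 0 fell and 10 did not pass, with a median difference of 0.29, and 1.06 without M32L, M76R and M86R. Krt14, the filament of basal and myoepithelial cells, had log2 ratios of 3.87 in M33R and 3.27 in M84R, above the epithelial range of -3.03 to 2.27, and of -0.56, 0.67, -1.31 and -0.90 in M18L, M32L, M76R and M86R. Its partner Krt5 followed the same order at the top, with 2.67 in M33R and 2.34 in M84R, and -3.17 to 0.38 in the other 4. Neither passed the test, with differences of 1.26 for both and standard errors of 0.74 and 0.85 (adjusted p = 0.279 for Krt14 and 0.348 for Krt5). Without the 3 arrays the differences were 2.61 and 2.25 (adjusted p = 0.0768 and 0.196). Krt8 and Krt18, the keratin pair of luminal cells, differed by -0.70 (standard error 0.37, adjusted p = 0.223) and -0.65 (0.40, adjusted p = 0.304). M33R (0.43), M76R (0.90) and M84R (1.63) lay below every epithelial tumor for Krt18, and M33R and M76R for Krt8. The other spindle cell tumors lay within the epithelial range. M33R, M76R and M84R were on the same slide, apart from the other spindle cell arrays. The part of the slide in the values of these tumors was not tested.

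Krt6b and Krt16, keratins of stressed and hyperproliferative epidermis, rose by 3.74 (standard error 1.17, adjusted p = 0.0442) and 3.11 (0.93, adjusted p = 0.0366). Krt6b had log2 ratios of 0.33 in M18L, 2.92 in M32L, 6.19 in M33R, -0.35 in M76R, 6.01 in M84R and -3.12 in M86R, against -4.03 to 3.87 (median -2.17) in epithelial tumors. M33R and M84R lay above every epithelial tumor and M86R below the epithelial median. The calls of both keratins were lost when M32L, M33R or M84R was left out, and that of Krt6b also without any of 11 single epithelial tumors, whereas without M32L, M76R and M86R the differences were 5.92 and 4.85 (adjusted p = 0.0107 and 0.0103). Sprr1b, a precursor of the cornified cell envelope, had the same split, with 5.45 in M33R and 3.77 in M84R and -5.91 in M86R, and Stfa1 and Cstdc5, inhibitors of cysteine proteases, were also called higher and lost their calls without M32L, M33R or M84R. Stfa1 and Cstdc5 belong to a family of near-identical genes, so their probes may share signal. Among epithelial tumors, 17R was highest for Krt5 (1.96), Krt14 (2.27), Krt6b (3.87), Krt16 (3.05) and Sprr1b (1.87), so high values were not confined to spindle cell tumors. Of 11 desmosome genes, 1 rose, 0 fell and 10 did not pass, with a median difference of 0.22, and 1.63 without M32L, M76R and M86R. Over all genes 4.11% were called higher. Dsc3, a desmosomal cadherin, rose by 2.86 (standard error 0.53, adjusted p = 0.0028) with 5 of the 6 spindle cell arrays measured, as M76R had no usable spot. The difference was 1.41 after normexp and loess (adjusted p = 0.0134).

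**Figure D2:**
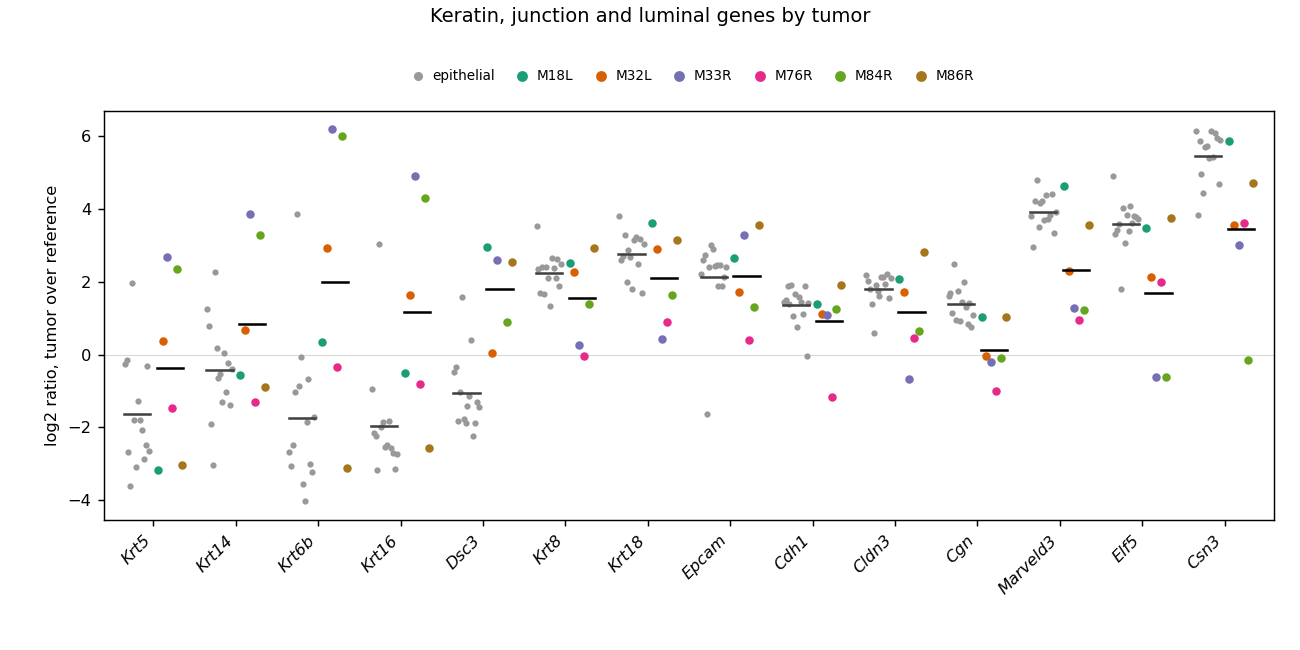
Log2 ratio of tumor over reference (y axis) of 14 keratin, junction and luminal genes in each tumor, with epithelial tumors in gray, spindle cell tumors in color and lines at the group means. M33R and M84R are at the top for Krt5, Krt14, Krt6b and Krt16 and at the bottom for Elf5. M18L and M86R are near the epithelial tumors for Cdh1, Cldn3 and Marveld3, and for Cdh1 all spindle cell tumors but M76R are.

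Of 19 epithelial transcription and splicing regulators, 1 fell and 0 rose, where 6.67% of all genes were called lower. The median difference of this list was -0.46, and -0.03 without the 3 arrays. The gene that fell was Elf5, the factor that drives alveolar differentiation. It had log2 ratios of -0.63 in M33R and -0.60 in M84R, 1.99 in M76R, 2.13 in M32L, 3.49 in M18L and 3.76 in M86R, against 1.81 to 4.89 (median 3.66) in epithelial tumors. M33R and M84R alone lay below the epithelial range, whose lowest value was that of 17R. The difference was -1.90 (standard error 0.53, adjusted p = 0.0265), and -2.84 without the 3 arrays (adjusted p = 0.0114). Without M33R or without M84R it was not called. Of 17 hormone receptor, luminal and milk genes tested, 0 rose, 3 fell and 14 did not pass, with a median difference of -0.29, and -0.68 without the 3 arrays. Csn1s2a and Csn3, caseins of milk, fell by 3.91 (standard error 0.80, adjusted p = 0.0051) and 2.01 (0.56, adjusted p = 0.0269), and Wap, a whey protein, by 2.06 (0.64, adjusted p = 0.0415). Csn1s2a ran from -1.86 to 2.36 in spindle cell tumors and from 1.71 to 7.89 in epithelial tumors. The calls of Csn1s2a and Wap were lost without the 3 arrays (adjusted p = 0.0822 and 0.0885). Wap was also not called after normexp and loess (adjusted p = 0.0944). Esr1, the estrogen receptor, differed by 0.17 (standard error 0.87, adjusted p = 0.927) and ranged from -3.12 to 5.09 among epithelial tumors. Pgr, the progesterone receptor, did not pass the filter on signal. None of 21 epithelial surface receptors and kinases passed the test, with a median of 0.06, and 2 were called higher without the 3 arrays, with a median of 0.34.

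Markers of other cell types moved with some of these results. Of 12 endothelial markers 6 rose and 0 fell, with a median of 1.07. Pecam1, the adhesion molecule CD31 of vessel walls, had log2 ratios of -0.45 in M18L, 0.60 in M32L, 0.31 in M33R, 1.62 in M76R, -0.06 in M84R and 0.31 in M86R, above all epithelial tumors, which ran from -1.75 to -0.66. The difference was 1.45 (standard error 0.23, adjusted p = 0.000617), and Pecam1 was also called without the 3 arrays (adjusted p = 0.0126). Tie1, a receptor of endothelial cells, rose by 1.29 (standard error 0.20, adjusted p = 0.000639), and Esam and Egfl7, an endothelial adhesion molecule and a secreted vessel protein, by 1.22 (0.31, adjusted p = 0.0155) and 1.12 (0.34, adjusted p = 0.0383). For Tie1 and Esam the reference channel differed more than the tumor channel (-0.67 against 0.63 and -0.71 against 0.52). Without the 3 arrays 3 of the 12 were called, with a median of 0.52. The mean level of the 12 ran from -1.86 to -0.62 in epithelial tumors and was highest in M32L (0.96) and M76R (1.14). All 12 were well above background on some array of each group, and the part of endothelial cells in the matrix and Eng results was not tested.

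Adipocyte markers split the spindle cell tumors most. The mean level of 11 such genes was 1.36 in M32L and 3.02 in M76R and ran from -4.48 to -3.24 in the other 4, against -4.07 to -2.10 in epithelial tumors. Fabp4, a fatty acid binding protein, was at 2.15 in M32L and 3.95 in M76R and from -4.36 to -2.69 in the others. None of the 11 passed the test, and the median difference went from 1.23 to -0.39 without the 3 arrays. B cell markers were at mean levels of 3.85 in M76R and 3.92 in M86R and from -1.50 to 0.89 in the other 4, within the epithelial range at the top of 3.92, and 0 of 8 passed the test. The 3 arrays left out above are thus those with high adipocyte or B cell markers, and the part of host fat or lymphoid tissue in the results was not tested. The median difference of the B cell markers went from -0.22 to -2.08 without the 3 arrays. T cell markers (0 of 11 called) ran from -1.67 to 1.14 in spindle cell and from -1.35 to 1.87 in epithelial tumors, with a median difference of -0.48, and -1.56 without the 3 arrays, where 1 was called lower.

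Of 14 macrophage markers, 3 rose and 0 fell, with a median of 0.43, and 0.07 without the 3 arrays, where 2 were called. Cd163, a scavenger receptor of tissue macrophages, rose by 2.46 (standard error 0.41, adjusted p = 0.000941), with 4.30 in M76R and 0.97 to 1.92 in the other spindle cell tumors, against -1.63 to 1.15. It was well above background on 10 of the 14 epithelial arrays, and the difference was 1.12 after normexp and loess (adjusted p = 0.0107). Lyz2, a lysozyme of myeloid cells, and C1qb, a complement chain made by macrophages, rose by 0.96 (standard error 0.26, adjusted p = 0.0224) and 0.95 (0.30, adjusted p = 0.0454), and were not called without the 3 arrays (adjusted p = 0.243 and 0.479). Lyz2 was also not called after normexp and loess (adjusted p = 0.0747). For C1qb the difference was -0.70 in the reference channel and 0.27 in the tumor channel. Of 12 skeletal muscle markers, Mb and Mylpf fell by 0.84 and 0.81 (adjusted p = 0.0433 and 0.0164). Mb was not called after normexp and loess (adjusted p = 0.238). Mylpf was not well above background on any spindle cell array, its difference was 0.46 after normexp and loess, and no fold is given.

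**Figure D3:**
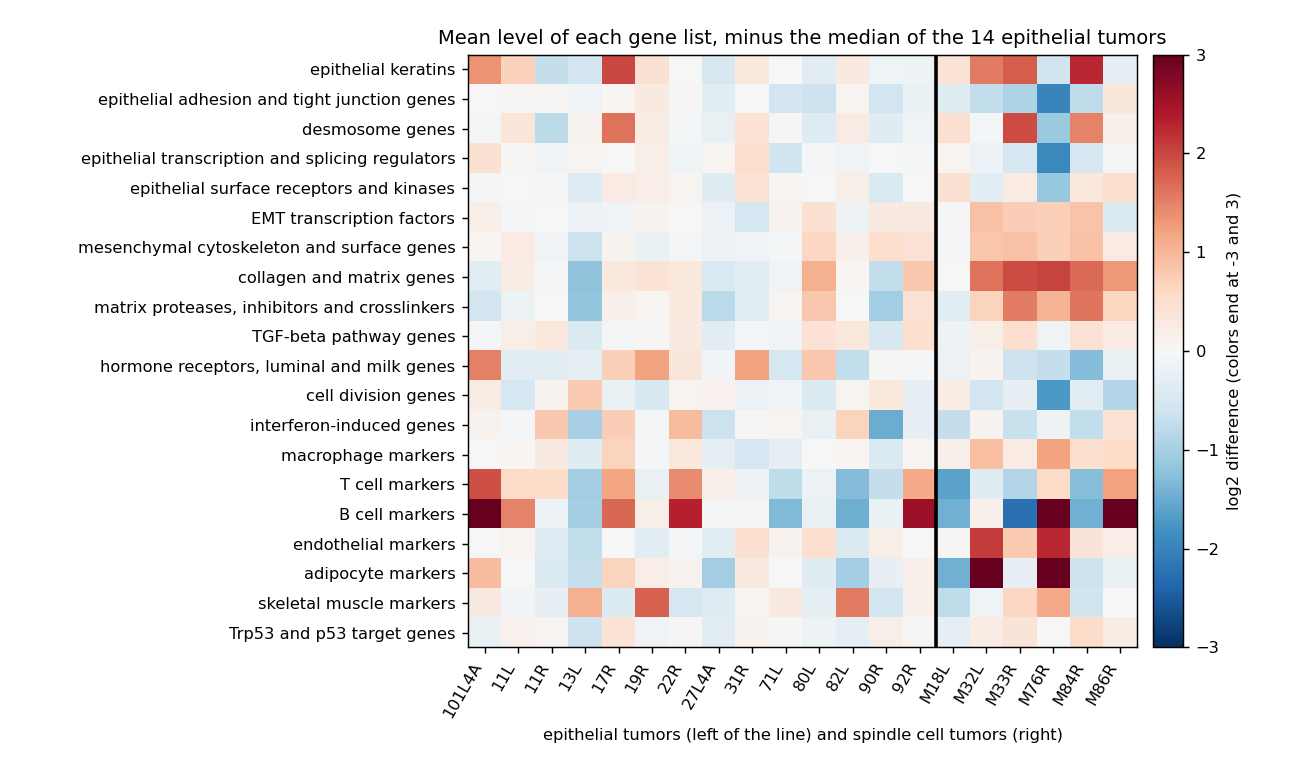
Mean log2 ratio of each gene list (y axis) in each tumor (x axis), minus the median of the 14 epithelial tumors, with colors from -3 to 3. For example, 5 of the 6 spindle cell tumors are high for collagen and matrix genes and M18L is not, M32L and M76R are high for adipocyte and endothelial markers, and M33R and M84R are the highest of the 6 for keratins and desmosome genes.

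Of 19 cell division genes tested, 6 fell, 0 rose and 13 did not pass, and all 19 had a difference below 0 with a median of -0.48. Cdk1, the kinase of mitotic entry, fell by 1.07 (standard error 0.33, adjusted p = 0.0399), of which the larger share was in the reference channel (0.86) and not in the tumor channel (-0.20). Its partners Ccnb1 and Ccna2 fell by 0.99 (0.32, adjusted p = 0.0477) and 0.91 (0.27, adjusted p = 0.0352). Cdk1 and Ccnb1 were not called after normexp and loess (adjusted p = 0.055 and 0.0988). Mcm6, a subunit of the replication helicase, fell by 0.90 (standard error 0.26, adjusted p = 0.0295). Without M32L, M76R and M86R, 0 of the 19 were called and the median was -0.11. The mean level of the list was lowest in M76R (-1.1), and in the other spindle cell tumors it ran from -0.27 to 0.85, against 0.10 to 1.41 in epithelial tumors. Of 24 interferon-induced genes, 1 fell and 0 rose, with a median of -0.37, where 6.67% of all genes were called lower. Without the 3 arrays 3 were called lower, with a median of -0.72. Ddx58, a sensor of viral RNA, fell by 0.66 (standard error 0.15, adjusted p = 0.00925), from 1.66 to 2.67 in epithelial tumors to 1.52 to 2.01 in spindle cell tumors.

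Trp53 itself gave signal in all tumors. Its probe (mm9 chromosome 11, 69404204 to 69404263) had log2 ratios of 1.75 in M18L, 1.66 in M33R, 1.52 in M84R and 1.67 in M86R, above all epithelial tumors, and of 0.08 in both M32L and M76R, against -2.25 to 1.0. The difference was 0.96 (standard error 0.40, adjusted p = 0.122). The sources used here do not place this probe relative to the deletion, so it does not check the genotype. Of 17 genes in the list of Trp53 and its targets, 1 rose and 0 fell, with a median of 0.15, where 4.11% of all genes were called higher. Cdkn1a, the cell cycle inhibitor p21, rose by 1.30 (standard error 0.40, adjusted p = 0.0415) and was not called without the 3 arrays (adjusted p = 0.178).

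The differences that follow are the largest among genes also called without M32L, M76R and M86R, well above background in most arrays of the higher group and differing more in the tumor than in the reference channel. Genes outside these limits, such as Csn1s2a, could differ more. Slc6a19os, Pgk2, C1ql3, Gm26604, Stum and Nkx2-4 were higher in spindle cell tumors by 5.02, 4.67, 4.81, 4.09, 3.60 and 3.60, and their median processed tumor signals in epithelial tumors were 33.4, 74.4, 24.5, 46.6, 33.8 and 39.6 units. M32L was close to the epithelial tumors for Slc6a19os (0.95), Pgk2 (0.92), Stum (0.35) and Nkx2-4 (0.66). The highest epithelial values of these were 0.51, 1.04, 0.28 and 0.61. For C1ql3 (3.49) and Gm26604 (1.98) M32L was above all epithelial tumors. Pgk2 and Gm26604 had no usable spot in M33R, and Nkx2-4 had none in M18L. After normexp and loess the differences were 1.64, 1.60, 1.85, 1.94, 1.1 and 1.43, and all 6 were still called. Apart from Stum, whose probe changed over all 41 arrays, they were also higher by 3.04 to 5.62 in the spindle cell tumors of mice with pubertal HFD, whose arrays were scanned in the same session. Slc6a19os is by its name a transcript opposite to Slc6a19, and Pgk2 is a phosphoglycerate kinase of the testis. The part of background in these values was not tested.

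The other 4 of the 10 highest were Sprr1b, Krt6b, Cstdc5 and Stfa1. Their differences of 4.82, 3.74, 3.73 and 3.68 were 3.76, 3.76, 4.01 and 3.82 after normexp and loess. In mice with pubertal HFD the same differences were -0.48, -0.20, -1.10 and -1.03, and the interaction was not called for any of them (adjusted p = 0.284, 0.333, 0.176 and 0.114).

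The 10 genes of largest fall within these limits were Shisa2, Tex15, 9330188P03Rik, Lyg1, Unc5cl, Plppr4, Map3k21, Arhgef38, Abcc12 and Lrrc75b. Shisa2, an inhibitor of Wnt and FGF receptor maturation, fell by 2.96 (standard error 0.60, adjusted p = 0.00475), with -4.76 to 0.42 in spindle cell and -0.73 to 1.77 in epithelial tumors. Map3k21, a mixed lineage kinase, fell by 2.53 (standard error 0.56, adjusted p = 0.00772). The noncoding transcript 9330188P03Rik fell by 2.68 (standard error 0.41, adjusted p = 0.000529), with 1.02 to 3.80 against 3.19 to 5.97. Tex15, Abcc12 and Lyg1 were not called after normexp and loess (adjusted p = 0.0913, 0.0591 and 0.245), where their differences were -1.09, -1.12 and -0.76.

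**Figure D4:**
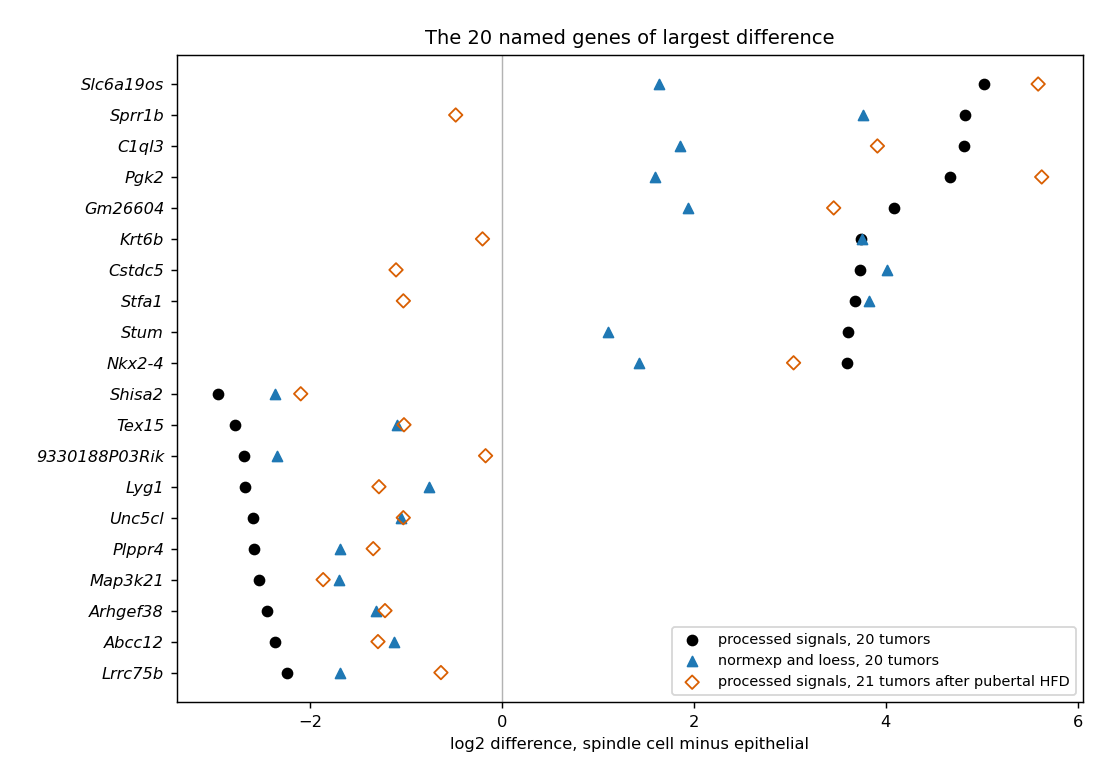
Log2 difference of spindle cell minus epithelial tumors (x axis) for the 10 highest and 10 lowest genes among those called with and without M32L, M76R and M86R, well above background in the higher group and differing more in the tumor than in the reference channel. Black circles are processed signals of the 20 tumors, blue triangles normexp and loess, and open diamonds processed signals of the 21 tumors after pubertal HFD, and the diamonds lie near the circles for Slc6a19os, C1ql3, Pgk2, Gm26604 and Nkx2-4 but below 0 for Sprr1b, Krt6b, Cstdc5 and Stfa1.

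Whether the difference depended on adult diet was tested as the interaction of histology and regimen. Limma called 0 of 21157 genes (0%), with 1157 at an unadjusted p under 0.05. Within LFD mice alone (3 against 8) 16 genes were called higher and 3 lower, and within LFD-HFD mice alone (3 against 6) 235 and 352. The median difference of the matrix list was 1.33 in LFD and 1.91 in LFD-HFD tumors. Adipocyte markers were high in 1 LFD spindle cell tumor (M32L) and in 1 LFD-HFD spindle cell tumor (M76R). B cell markers were highest in 2 LFD-HFD spindle cell tumors (M76R and M86R), so the regimens also differed in these. All LFD spindle cell tumors were late, and the early ones, M84R and M86R, were from LFD-HFD mice. Regimen and onset thus overlapped among the spindle cell tumors.

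The same histologies were compared after pubertal HFD, in 6 spindle cell and 15 epithelial tumors that shared no array with the 20. Mice on lifelong HFD and HFD-LFD mice, which ate the low fat diet from 10 weeks, were pooled in that comparison. There limma called 559 of 20796 genes higher (2.69%) and 640 lower (3.08%). The interaction of histology and pubertal HFD was called for 26 of 20796 genes (0.125%), with 2551 at an unadjusted p under 0.05. Matrix genes had a median difference of 1.39 without and 0.35 after pubertal HFD, with 13 and 0 of 22 called higher, and keratins of 0.29 and -1.04. Markers of other cell types moved alongside, with adipocyte medians of 1.23 without and -1.83 after pubertal HFD (0 and 5 of 11 called lower) and endothelial medians of 1.07 and 0.24, and their part in the matrix values and in the interaction genes was not tested. For Bgn the differences were 2.59 and 1.09 and for Col1a2 2.23 and 0.22, and these interactions were not called (adjusted p = 0.233 and 0.176).

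The called interaction genes of largest size were Tmem45b, S1pr5, Serpina3i, Rarres2 and Npy1r on one side and Nes, Mnat1 and 2410004B18Rik on the other. Rarres2, the chemoattractant chemerin, had differences of 1.90 without pubertal HFD and -1.39 after it (interaction -3.29, standard error 0.69, adjusted p = 0.0439). Its log2 ratio was 2.62 in M32L and 3.06 in M76R, the tumors with high adipocyte markers, and without M32L, M76R and M86R the first difference was 1.15. Npy1r, a neuropeptide Y receptor, had differences of 1.43 and -1.72 (interaction -3.14, standard error 0.69, adjusted p = 0.0439). Tmem45b, a membrane protein, had 2.47 and -2.76 (interaction -5.23, standard error 0.93, adjusted p = 0.0126), and the first was 0.65 without the 3 arrays. Nes, which encodes the filament protein nestin, had -0.60 and 1.81 (interaction 2.42, standard error 0.52, adjusted p = 0.0439). The count rested on few arrays, with 8 genes called without M32L, M76R and M86R, 1 without M76R, 4 without M32L, 4 without M33R, 219 without M18L and 76 without M86R, and with 1405 after normexp and loess and 5 with slide as a random block.

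**Figure D5:**
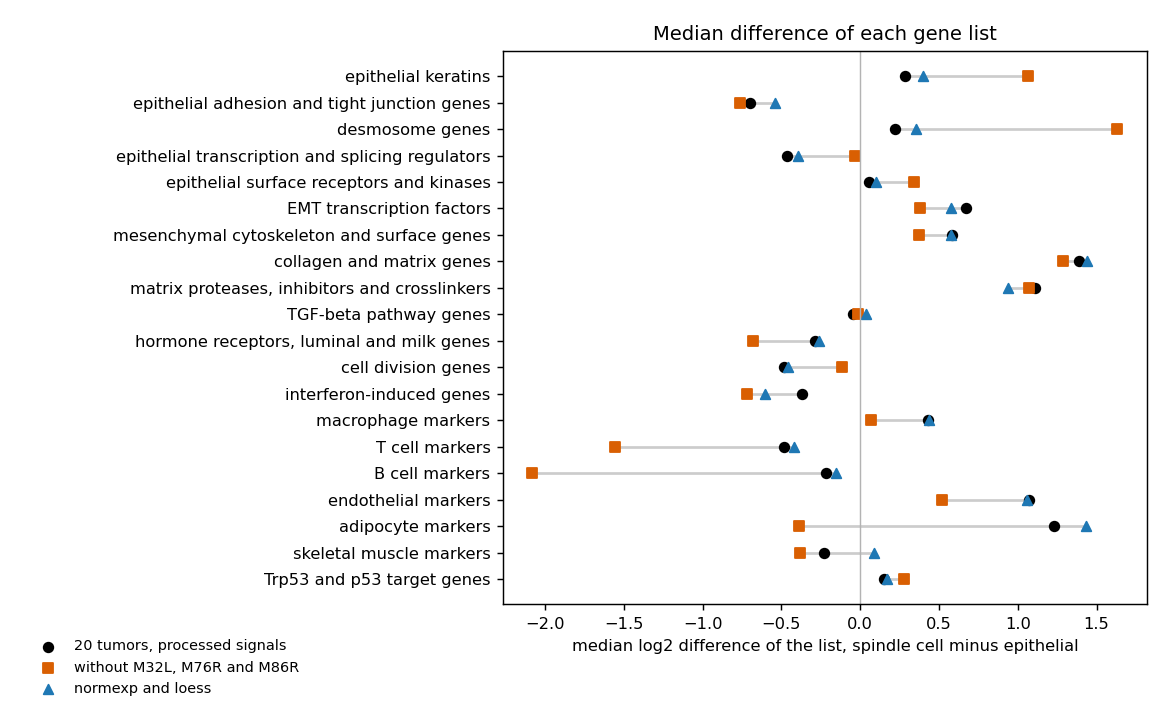
Median log2 difference of spindle cell minus epithelial tumors (x axis) for each gene list, from processed signals of 20 tumors (circles), without M32L, M76R and M86R (squares) and after normexp and loess (triangles). Matrix and protease lists stay near 1 in all 3 settings, whereas the adipocyte median goes from 1.23 to -0.39 and the desmosome median from 0.22 to 1.63 without the 3 arrays.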

How the data were processed

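Per the labels, each tumor was hybridised with a common reference on an Agilent 2-color 4x44K array. The deposited scanner files hold intensities that the authors' scanner software (Agilent Feature Extraction 10.5.1.1 for spindle cell and 11.0.1.1 for epithelial arrays, per the file headers, with 8.5.1.1 in the submitters' processing notes) had background-subtracted and dye-normalized. The authors also deposited a matrix of log2 ratios, used as an alternative (r = 0.942 to 0.978 with the ratios used here on each array, direction and centring not stated). Here, log2 of the Cy5 over the Cy3 processed signal was taken per spot, outlier spots were set missing and spots of a probe averaged. Probes were kept where both processed signals exceeded 10 on 80% or more of the 20 arrays, with values on at least 4 spindle cell and 10 epithelial arrays. Of 39429 probes, 27821 passed, and the probe of highest mean signal stood for each of 21157 genes, 17261 of them named through the reference table. Limma 3.58.1 in R 4.3.3 (lmFit, eBayes, no covariates, Benjamini-Hochberg adjustment over all genes, threshold 0.05) was tested on simulated data first. The significance analysis of the study's methods was not run. Named genes were the 10 largest differences each way among genes called with and without M32L, M76R and M86R, well above background in the higher group and differing more in the tumor than in the reference channel, up to 4 called members of largest difference of each list, up to 5 interaction genes each way, and a set of defining genes. The matrix genes called without the 3 arrays and Fabp4 were named after their values were seen. Members and lists were chosen with earlier results of these data known. Alternatives changed the background correction, centring, filter, probe sets, tumors and threshold. The number of arrays limits the precision.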

Additional observations from a re-analysis of the deposited data

Results flagged for a closer look

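Of 103 measures examined in the 6 spindle cell tumors, 8 had an end value whose gap to the next exceeded Dixon's critical share of the range for a group of 6, which chance gives in about 1 of 20 groups. M32L had a spread of log2 ratios of 0.75, with the next array at 1.15. M18L stood apart in the mean level of the matrix list (-1.70, next -0.36) and in Col1a2 (-2.84, next -0.74). M76R stood apart in the mean level of the epithelial transcription and splicing regulators (-0.57, next 0.85), in Cdh1 (-1.16, next 1.09), in Patj (-0.75, next 0.81), in Foxc1 (-0.82, next 0.69) and in Cd163 (4.30, next 1.92).

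For 26 of 20796 genes the interaction of histology and pubertal HFD was called in limma (adjusted p under 0.05). The count was not stable, with 1 gene without M76R, 5 with slide as a random block, 219 without M18L and 1405 after normexp and loess.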

How the results depend on the processing

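Against 869 genes higher and 1411 lower, the counts were 1290 and 900 after normexp and loess, 1136 and 875 after centring, 965 and 876 in the tumor channel alone and 1052 and 660 in the authors' matrix. They were 1954 and 3252 with array weights, 1408 and 2416 at an adjusted p under 0.10, 23 and 4 in late tumors, 16 and 3 in LFD and 235 and 352 in LFD-HFD tumors, and 2127 genes were higher with no signal filter. Leaving out 1 tumor gave 518 (without M33R) to 1172 (without M18L) higher and 717 to 1884 lower. The regimen interaction (0 genes) gave 0 to 7, with 7 without M18L. The pubertal interaction (26 genes) gave 1405 after normexp and loess, 8 without M32L, M76R and M86R, 5 with slide as a random block and 1 (without M76R) to 219 (without M18L). Mylpf reversed to 0.46 after normexp and loess. Of the calls of 60 named genes, 18 were lost without M32L, M76R and M86R. The 10 largest differences each way were named only if called without those arrays, so they could not be lost there. After normexp and loess 10 calls were lost, and 17 in the tumor channel alone. In the authors' matrix 13 of 55 were lost, without M84R 23 and without M33R 22. In LFD tumors 57 were lost, in late tumors 56 and in LFD-HFD tumors 43, and these settings hold fewer samples. Otherwise the cause was not tested. Leaving out M32L, 11L and 71L, the arrays of smallest spread, chosen after seeing the data, gave 747 and 1286. No paired analysis was possible because the labels give no replicate numbers shared between groups. Dim spots limit the sizes of differences, as the normexp values of the largest ones show.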
